A study of Drosophila melanogaster with 12 samples.

Results

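The 10 genes described here encode transcription factors that mark motor neurons and interneurons of the fly nerve cord: eve, zfh1, exex (the fly Hb9), tup (Islet), Lim3, HGTX (Nkx6), vvl, ap, Lim1 and en. They were taken as a list by gene symbol, out of 14251 gene identifiers in the deposited tables, with earlier results of these data known. All 10 had enough counts to be tested in each comparison. Messenger RNA was sequenced from the ventral nerve cord of wandering Drosophila melanogaster larvae of the last instar, grown at 25C, with 4 samples in each of 3 groups. L854F larvae were homozygous for kdm5[L854F], a missense allele, and JmjC larvae were homozygous for kdm5[JmjC*], described in the labels as demethylase inactive. WT larvae were not an unaltered strain: they carried the kdm5 140 allele rescued by a gKDM5 transgene. Whether the mutant larvae also carried a transgene is not stated in the labels. KDM5 is a histone demethylase that removes methyl groups from lysine 4 of histone H3. The labels used here give neither the sex nor the number of larvae in a sample, and do not say whether samples of a group came from separate crosses, so p-values measure the spread between these samples, which may be partly technical.

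Neurons of the nerve cord acquire their identity through combinations of such factors, most of which carry a homeodomain that binds DNA. In the fly embryo, Eve marks motor neurons that send axons to dorsal muscles, whereas Exex, Tup, Lim3, HGTX and Vvl mark motor neurons that project to ventral and lateral muscles, and Zfh1 is shared by somatic motor neurons. Ap and En are found in restricted sets of interneurons, and Lim1 in interneurons and some motor neurons. These assignments come from embryonic studies and are given as background. The RNA came from whole cords, so fewer cells of a type and less RNA per cell cannot be told apart in any result below.

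Deposited expected counts summed to between 15103631 and 16850705 per sample. Spearman correlations across genes were 0.991 to 0.997 within groups and 0.982 to 0.993 between groups. Some libraries were high for markers of other tissues. Lsp1beta of the fat body stood at 41.3 CPM in L854F replicate 4 (2.25 to 4.96 CPM in the other L854F samples). Fbp1 of the fat body stood at 75.9 and 55.2 CPM in WT replicates 1 and 4 (6.32 and 15.3 CPM in replicates 2 and 3). In L854F it stood at 27.1 and 37.6 CPM in replicates 1 and 4 (4.88 and 4.38 CPM in replicates 2 and 3). Lsp2 was likewise highest in replicates 1 and 4 of WT and L854F. The glue gene Sgs3 stood at 18.5 CPM in JmjC replicate 2 (1.98 to 2.32 CPM in the others). The muscle gene Mhc stood at 12.98 CPM in WT replicate 4 (0.953 to 1.501 CPM in the others). It was highest in replicate 4 of both mutants too. The altered gene, named lid in the deposited tables, stood at 729 to 795 CPM (counts scaled to the normalised library size) in L854F, 727 to 813 CPM in JmjC and 665 to 734 CPM in WT, and was called in neither mutant against WT by edgeR's quasi-likelihood test (adjusted p = 0.309 and 0.201). The tissue label was checked against markers. The 6 neuron markers summed to between 4286 and 5498 CPM per sample, and the 8 muscle markers to between 39.1 and 103 CPM.

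Levels of the members spanned more than an order of magnitude. Levels were set per kilobase of the deposited gene length, which for WT was the mean of the lengths in the tables with L854F and with JmjC (for zfh1, 6233 bases from 6510 and 5956). On this scale, zfh1 was the most abundant in WT at 39.6 ± 1.41 CPM per kilobase (SD, n = 4), and its range did not overlap that of Lim1, next in order at 26.2 ± 3.55. The POU-domain gene vvl (24.6 ± 1.93) and HGTX (22.1 ± 1.56) followed, and the ranges of Lim1, vvl and HGTX overlapped from neighbour to neighbour. Lim3 (12.4 ± 0.121) stood alone below them. The motor neuron genes tup (8.57 ± 0.598) and exex (6.91 ± 0.729) overlapped, as did the interneuron genes ap (3.92 ± 0.248) and en (3.85 ± 0.116). Expression was lowest for eve, at 2.32 ± 0.802 CPM per kilobase, and its WT range did not reach that of en. The order of the means was the same in L854F, JmjC and WT, with each mutant set by the length deposited for its own comparison with WT. In JmjC the range of zfh1 (26.4 to 33.1 CPM per kilobase) overlapped that of Lim1 (25.2 to 28.7). In both mutants the range of eve overlapped that of en.

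**Figure D1:**
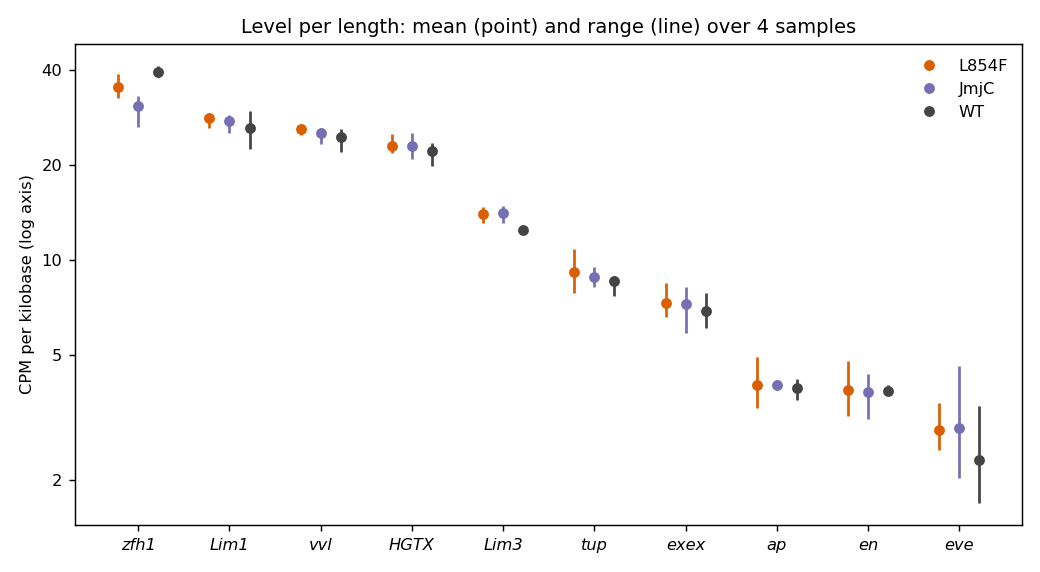
Level of each member in CPM per kilobase of deposited gene length, on a log axis, with the mean as a point and the range over 4 samples as a line, for L854F, JmjC and WT. The means of the members fall in the same order in the 3 groups, with zfh1 highest (39.6 CPM per kilobase in WT) and eve lowest (2.32). Ranges of neighbours overlap in part, among them zfh1 and Lim1 in JmjC. The length used can differ between groups (for zfh1, 6510 bases in L854F, 5956 in JmjC and 6233 in WT). Differences between groups on this scale are therefore not the changes in CPM.

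Both counting error and the spread between samples bear on the size of change that could be seen. A WT sample held 3981 to 4318 expected counts for zfh1 but only 40 to 80 for eve, so that counting alone gives a coefficient of variation near 1.57% for zfh1 and 13.6% for eve. The observed coefficients of variation in WT were 3.56% and 34.6%. For 2 genes the WT samples lay closer together than counting error would give: Lim3, at 0.973% against 4.28%, and en, at 3.02% against 7.98%.

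Genes were called at an adjusted p under 0.05 by edgeR's quasi-likelihood test with Benjamini-Hochberg adjustment over all genes tested. Between L854F and WT, 0 of the 10 members were called, beside 5.54% of 9105 genes (3.04% higher and 2.49% lower). At an unadjusted p under 0.05 in edgeR Lim3 was the 1 member reached there, beside 1728 of the 9105 genes. DESeq2 also called 0 members. Between JmjC and WT, 2 members were called, 1 higher (Lim3) and 1 lower (zfh1), beside 17.3% of 9244 genes (9.66% higher and 7.67% lower). Between the mutants, 1 member was called, zfh1, higher in L854F than in JmjC, beside 16.0% of 9207 genes (7.20% higher and 8.80% lower). These counts of members are near the shares of all genes. The samples of L854F and WT did not overlap for 1 member (Lim3), beside 12.7% of all tested genes. Those of JmjC and WT did not overlap for 2 (zfh1 and Lim3), beside 22.7%, and those of the mutants for 1 (zfh1), beside 20.7%. The members' median log2 fold change was 0.08 for L854F over WT (all genes 0.0013), 0.05 for JmjC over WT (all genes 0.0030) and 0.02 for L854F over JmjC (all genes 0.0016). Both comparisons with WT use the same 4 WT samples.

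**Figure D2:**
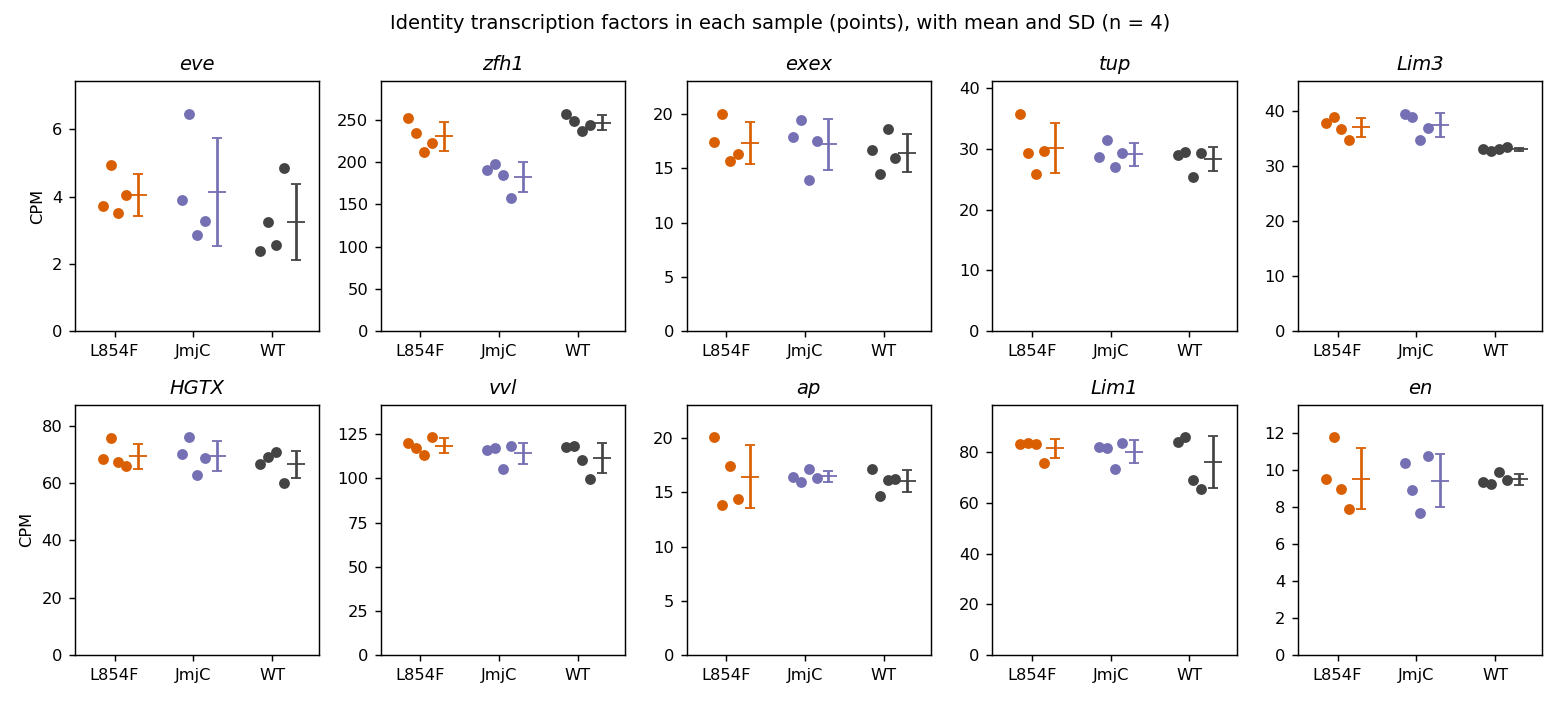
CPM of each member in every sample (points, replicates 1 to 4 from left to right) with the mean and SD of each group (n = 4), for L854F, JmjC and WT, each axis starting at 0. The zfh1 values in JmjC (157 to 197 CPM) lie below all L854F and WT values, and Lim3 is the only other member whose values in a mutant do not overlap WT.

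zfh1, which encodes a zinc finger homeodomain protein of somatic motor neurons, some glia, and muscle and blood cell precursors, fell in JmjC. It stood at 253, 234, 212 and 222 CPM in L854F replicates 1 to 4, at 191, 197, 185 and 157 CPM in JmjC replicates 1 to 4, and at 257, 249, 236 and 244 CPM in WT replicates 1 to 4. All JmjC samples lay below all L854F and WT samples, and L854F overlapped WT. The log2 fold change in JmjC against WT was -0.43 (SE 0.07, adjusted p = 0.00137 by edgeR's quasi-likelihood test), which is a change of -25.9% with a 95% interval of -33.2% to -17.8%. Of 9244 genes tested, 561 had a fall at least as large. In L854F against WT the log2 fold change of zfh1 was -0.10 (SE 0.06, edgeR adjusted p = 0.426), with an interval of -14.5% to 2.14%. The mutants were compared directly, and zfh1 was higher in L854F than in JmjC, with a log2 fold change of 0.34 (SE 0.08, edgeR adjusted p = 0.0147). The authors' deposited table listed zfh1 at -0.096 on the log2 scale in L854F over WT, with an adjusted p of 0.666, and at -0.44 in JmjC over WT, with one of 2.46e-07. Leaving out any 1 of the 8 libraries kept the fall in JmjC, with log2 fold changes between -0.47 and -0.37 and edgeR adjusted p up to 0.00645.

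zfh1 (FBgn0004606) lies at 3R:30765926-30789202 on the plus strand of BDGP6.54, with 3 annotated transcripts of 3560 to 6522 exonic bases. It overlaps an antisense gene, asRNA:CR45189, which is absent from the deposited counts and so was not analysed. The libraries were stranded per the labels, but the sources used here do not say whether counting used strand, and without it reads of the antisense gene could not be told apart.

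zfh1 is also expressed outside neurons, so marker lists of other cells were set beside it. Summed hemocyte markers, for blood cells, stood at 94.6 to 108 CPM in L854F, 63.3 to 91.6 CPM in JmjC and 93.2 to 110 CPM in WT. The sum was lower in all JmjC samples than in any WT sample. Pxn, which encodes the matrix enzyme peroxidasin and holds most of this sum, fell in JmjC (64.1 ± 9.46 CPM, against 92.5 ± 6.06 CPM in WT, log2 fold change -0.53, edgeR adjusted p = 0.00327). The other 3 markers, Hml, NimC1 and eater, were not called in JmjC against WT, with log2 fold changes of 0.26, -0.25 and 0.17. No hemocyte marker was at 0 in any group. The part of these cells in the zfh1 result was not tested.

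Muscle markers summed to 39.1 to 62.5 CPM in L854F, 43.9 to 68.6 CPM in JmjC and 55.7 to 103 CPM in WT. Most of this sum was Mef2, a regulator also found in neurons, which was not called (47.9 ± 6.77 CPM in JmjC, against 43.4 ± 2.54 CPM in WT). Of the 7 tested in JmjC 6 had negative log2 fold changes, with a median of -2.07 over the 7. An unadjusted p under 0.05 in edgeR was reached by 5, beside 2862 of 9244 genes. Of the 7, 2 were called and fell, Mlc2 and Tm2. WT replicate 4 was the highest WT sample for every listed muscle marker. Examples are Mhc (12.98 CPM, other WT samples 0.953 to 1.501 CPM) and Act57B (13.2 CPM, other WT samples 1.72 to 2.44 CPM). L854F replicate 4 was likewise the highest L854F sample for every listed muscle marker (Mhc 3.69 CPM, others 0.245 to 0.398 CPM). JmjC replicate 4 was the highest JmjC sample for all but Tm2 (Mhc 2.29 CPM, others 0.187 to 0.976 CPM). Mlc2, a myosin light chain, fell in L854F as well (1.84 ± 1.09 CPM, against 11.1 ± 4.34 CPM in WT, edgeR adjusted p = 0.00174), where zfh1 was not called. Glial markers moved both ways in JmjC: the astrocyte gene alrm rose (716 ± 41.9 CPM, against 229 ± 26.9 CPM in WT) and moody, of the blood-brain barrier glia, fell (63.1 ± 5.89 CPM, against 78.0 ± 6.62 CPM in WT; edgeR adjusted p = 4.82e-07 and 0.0223). Neuroblast markers summed to 200 to 216 CPM in L854F, 175 to 207 CPM in JmjC and 219 to 241 CPM in WT. The lower sums in the mutants rest on mira. It stood at 108 to 124 CPM in L854F, 85.6 to 107 CPM in JmjC and 130 to 152 CPM in WT. Of the 5 neuroblast markers in JmjC, mira fell with a log2 fold change of -0.54 (edgeR adjusted p = 0.000816) and ase rose with 0.26 (edgeR adjusted p = 0.026). Among 6 imaginal disc markers in JmjC, rn fell with -0.37 (edgeR adjusted p = 0.000633) and wg with -1.13 (edgeR adjusted p = 0.0298). Of 6 neuron markers, nSyb rose in JmjC (log2 fold change 0.32, edgeR adjusted p = 0.0323). In JmjC no marker was called by edgeR for trachea (4 tested), fat body (4), heart and pericardial cells (2), salivary gland (3) or brain lobe and optic lobe (3). Of these 16 markers 3 had an unadjusted p under 0.05 in edgeR, beside 2862 of 9244 genes. In L854F against WT the called markers were mira, wg and Mlc2, all lower. Calls in JmjC against WT were 1 of 4 hemocyte, 2 of 7 muscle, 2 of 6 glial, 2 of 5 neuroblast, 2 of 6 imaginal disc and 1 of 6 neuron markers. Over all genes tested, 5.54% were called in L854F against WT and 17.3% in JmjC against WT. The part of any of these cells in the values of the members was not tested.

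**Figure D3:**
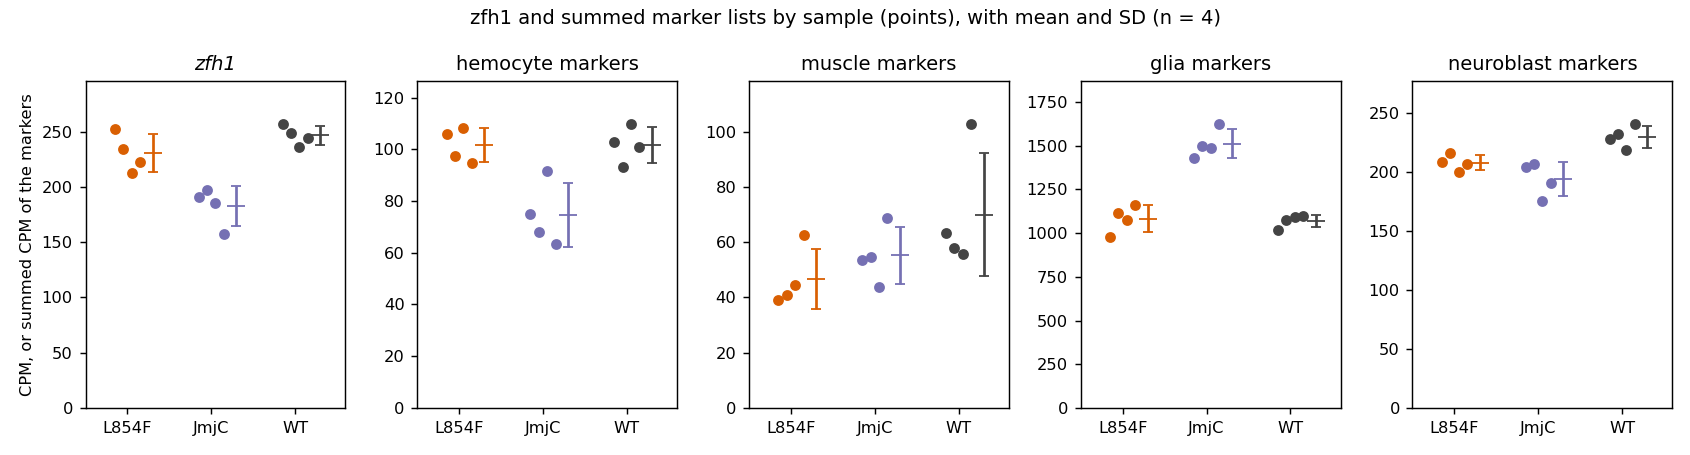
zfh1 in CPM and the summed CPM of the hemocyte, muscle, glia and neuroblast marker lists in every sample (points), with the mean and SD of each group (n = 4), for L854F, JmjC and WT. The JmjC samples are low for zfh1 (157 to 197 CPM) and for the hemocyte sum (63.3 to 91.6 CPM), most of which is Pxn. They are high for the glial sum (1429 to 1627 CPM, against 1019 to 1096 CPM in WT). That higher sum rests on alrm (679 to 776 CPM in JmjC, against 196 to 258 CPM in WT), while moody fell.

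Lim3, a LIM-homeodomain gene that acts with tup in ventrally projecting motor neurons, rose slightly in JmjC. It stood at 37.8, 38.8, 36.7 and 34.7 CPM in L854F replicates 1 to 4, at 39.5, 38.9, 34.7 and 37.0 CPM in JmjC replicates 1 to 4, and at 33.1, 32.6, 33.0 and 33.4 CPM in WT replicates 1 to 4. Every mutant sample was above every WT sample, the WT samples being unusually close together as given above. The log2 fold change was 0.18 in JmjC against WT (SE 0.06, edgeR adjusted p = 0.0434), a change of 13.6% with an interval of 4.36% to 23.7%. In L854F against WT it was 0.16 (SE 0.06, edgeR adjusted p = 0.128), with an interval of 2.86% to 21.9% before adjustment for multiple tests. The mutants did not differ detectably, at -0.01 (interval -10.0% to 8.93%, edgeR adjusted p = 0.898). The call in JmjC was narrow. It was lost with DESeq2 (adjusted p = 0.083), with no filter on low counts (edgeR adjusted p = 0.0891), with the replicate number as a block (edgeR adjusted p = 0.0693), and without any 1 library other than JmjC replicate 3 (edgeR adjusted p between 0.067 and 0.132 over the other 7 libraries, log2 fold change 0.16 to 0.19). Without JmjC replicate 3 the log2 fold change was 0.22 (edgeR adjusted p = 0.0173). The authors' deposited table gave Lim3 a log2 fold change of 0.16 in L854F over WT, with an adjusted p of 0.26, and of 0.18 in JmjC over WT, with one of 0.106. Lim3 (FBgn0002023) lies at 2L:19079256-19108427 on the minus strand of BDGP6.54.

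tup, the fly Islet gene and partner of Lim3, was not called in any comparison. It averaged 30.1 ± 4.14 CPM in L854F, 29.1 ± 1.85 CPM in JmjC and 28.3 ± 1.97 CPM in WT (SD, n = 4). The groups overlapped, and the 95% interval of the change was -7.77% to 23.4% in L854F against WT and -7.59% to 14.6% in JmjC against WT. L854F replicate 1 was the highest sample, at 35.8 CPM, and WT replicate 3 the lowest, at 25.3 CPM. The gene lies at 2L:18859507-18881261 (minus strand).

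exex encodes a homeodomain repressor of ventrally projecting motor neurons. Its level was 17.3 ± 1.93 CPM in L854F, 17.2 ± 2.34 CPM in JmjC and 16.4 ± 1.73 CPM in WT. The groups overlapped, with the highest sample in L854F and the lowest in JmjC, and the intervals of the change were -9.86% to 23.5% in L854F and -12.0% to 24.3% in JmjC against WT. The gene lies at 3L:7948186-7951563 (plus strand).

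HGTX, the fly Nkx6 gene, promotes motor neuron fate and axon growth in the embryo. It averaged 69.2 ± 4.35 CPM in L854F, 69.4 ± 5.34 CPM in JmjC and 66.5 ± 4.70 CPM in WT, and the groups overlapped. The interval of the change was -5.86% to 14.98% in L854F against WT and -6.24% to 16.1% in JmjC against WT. The gene lies at 3L:14583222-14599540 (minus strand).

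vvl, a POU-homeodomain gene also active in the trachea, stood at 118 ± 4.30 CPM in L854F, 114 ± 6.10 CPM in JmjC and 112 ± 8.73 CPM in WT. WT replicate 4 was the lowest of all samples at 99.7 CPM, and the groups overlapped. The change was between -3.21% and 16.4% in L854F and between -7.38% and 12.9% in JmjC against WT (95% intervals). Tracheal markers, which summed to 146 to 168 CPM in L854F, 152 to 165 CPM in JmjC and 170 to 173 CPM in WT, were lower in both mutants as a sum, though none of the 4 was called. The gene lies at 3L:6790158-6794941 (plus strand).

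eve, a homeodomain repressor that in the embryo directs motor axons to dorsal muscles, had the least certain values. It stood at 3.74, 4.94, 3.51 and 4.05 CPM in L854F replicates 1 to 4, at 3.91, 6.47, 2.87 and 3.29 CPM in JmjC replicates 1 to 4, and at 2.38, 3.25, 2.55 and 4.85 CPM in WT replicates 1 to 4. JmjC replicate 2 was the highest sample and WT replicate 1 the lowest, and the groups overlapped. The log2 fold change was 0.32 in L854F (SE 0.24, edgeR adjusted p = 0.549) and 0.34 in JmjC (SE 0.30, edgeR adjusted p = 0.478) against WT. The 95% intervals were wide, at -13.5% to 79.7% in L854F and -20.1% to 101% in JmjC. Without JmjC replicate 2 the log2 fold change in JmjC was 0.04, and without WT replicate 4 it was 0.60. eve (FBgn0000606) lies at 2R:9979319-9980795 (plus strand) and overlaps the antisense gene asRNA:CR43948, which had at most 1 count in any sample.

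Among the genes of interneurons, ap, a LIM-homeodomain selector, was not called. It stood at 20.1, 13.9, 17.4 and 14.4 CPM in L854F replicates 1 to 4, at 16.5, 15.9, 17.1 and 16.4 CPM in JmjC replicates 1 to 4, and at 17.1, 14.7, 16.1 and 16.3 CPM in WT replicates 1 to 4. Both the highest and the lowest sample were in L854F. The log2 fold changes against WT were 0.03 in L854F (interval -14.5% to 22.6%) and 0.04 in JmjC (interval -8.28% to 14.7%). The gene lies at 2R:5706202-5727525 (minus strand).

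Lim1, a LIM-homeodomain gene, averaged 81.6 ± 3.75 CPM in L854F, 80.3 ± 4.62 CPM in JmjC and 76.1 ± 10.3 CPM in WT. The WT samples were spread between 65.5 and 85.9 CPM and enclosed all mutant values. The change was between -6.01% and 22.3% in L854F and between -8.02% and 21.0% in JmjC against WT. The gene lies at X:8756539-8805804 (minus strand).

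en, a homeodomain repressor of neurons born in the posterior of each segment, was level over the groups: 9.52 ± 1.64 CPM in L854F, 9.43 ± 1.41 CPM in JmjC and 9.49 ± 0.287 CPM in WT. The mutant samples (7.69 to 11.8 CPM) spread on both sides of WT (9.26 to 9.90 CPM). The change was between -17.5% and 21.8% in L854F and between -17.0% and 18.8% in JmjC against WT. Its paralog inv, from the list of other identity factors, stood at 19.2 CPM in L854F, 21.1 CPM in JmjC and 17.5 CPM in WT, with log2 fold changes of 0.13 in L854F (edgeR adjusted p = 0.491) and 0.27 in JmjC (edgeR adjusted p = 0.0888). The gene en lies at 2R:11524006-11528210 (minus strand).

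**Figure D4:**
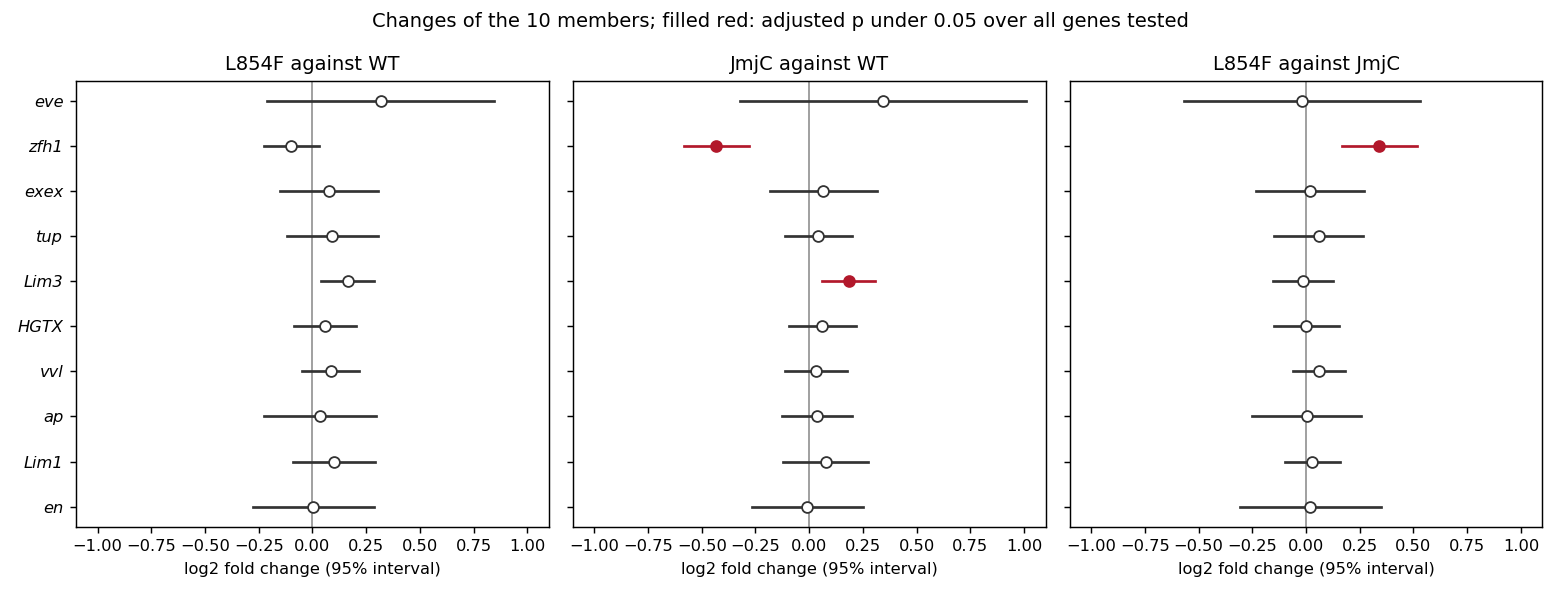
Log2 fold change of each member with its 95% interval in L854F against WT, JmjC against WT and L854F against JmjC. Filled red points had an adjusted p under 0.05 over all genes tested: zfh1 (-0.43) and Lim3 (0.18) in JmjC against WT, and zfh1 (0.34) in L854F against JmjC.

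Other transcription factors of neuron identity were described from a list of 40 genes. Between L854F and WT 1 of 36 tested was called, between JmjC and WT 0 of 37, and between the mutants 1 of 37, beside 5.54%, 17.3% and 16.0% of all tested genes. For JmjC over WT DESeq2 also called 0, and 2 had an unadjusted p under 0.05 in edgeR, beside 2862 of 9244 genes. Their median log2 fold changes were 0.05, 0.06 and 0.02. The called gene was Dr, the fly msh gene, a homeodomain factor of dorsal neuroblasts. It rose in L854F to 57.4 ± 3.06 CPM, against 47.4 ± 2.96 CPM in WT (log2 fold change 0.27, SE 0.06, edgeR adjusted p = 0.0282), and was higher in L854F than in JmjC (48.1 ± 4.35 CPM, log2 fold change 0.26, edgeR adjusted p = 0.0304). The call against WT was lost without any 1 library other than L854F replicate 3 or WT replicate 1 (edgeR adjusted p up to 0.0834). That against JmjC was lost without any 1 other than L854F replicate 3 or JmjC replicates 2 and 3 (edgeR adjusted p up to 0.0934). With the replicate number as a block, dac, a factor of some interneurons, was called as well in L854F against JmjC (log2 fold change 0.26, edgeR adjusted p = 0.0156), making 2 genes. The motor neuron genes grn and Oli were not called: grn stood at 67.9 CPM in L854F, 62.4 CPM in JmjC and 62.7 CPM in WT, and Oli at 66.1, 67.2 and 63.0 CPM in the same order.

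Cofactors of LIM and homeodomain proteins were examined as a list of 7 genes. Chi, the adaptor that joins LIM-homeodomain proteins such as Ap, Lim3 and Tup into complexes, was not called, at 86.3 CPM in L854F, 80.1 CPM in JmjC and 79.9 CPM in WT. Bx, an LMO protein that competes for Chi, was higher in L854F than in JmjC (127 ± 4.42 CPM, against 110 ± 3.40 CPM, log2 fold change 0.22, SE 0.05, edgeR adjusted p = 0.0126). exd, a homeodomain partner of Hox proteins and of En, was higher in JmjC at 416 ± 15.7 CPM, against 365 ± 26.1 CPM in WT (log2 fold change 0.19, SE 0.06, edgeR adjusted p = 0.0474), a call lost without any 1 of the 8 libraries (edgeR adjusted p between 0.0521 and 0.0951). Between L854F and WT 0 of the 7 were called by edgeR or DESeq2, and 1 had an unadjusted p under 0.05 in edgeR, beside 1728 of 9105 genes. By edgeR 0, 1 and 1 of the 7 were called in L854F against WT, JmjC against WT and L854F against JmjC. Of all tested genes 5.54%, 17.3% and 16.0% were called in the same order.

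Genes linked to the members in fly neurons, among them axon guidance receptors, channels and neuropeptides, formed a list of 18. Between L854F and WT 2 were called (1 higher, 1 lower), between JmjC and WT 5 (2 higher, 3 lower), and between the mutants 4 (3 higher in L854F, 1 lower), beside 5.54%, 17.3% and 16.0% of all tested genes. Their median log2 fold changes were -0.03, -0.11 and 0.07. FMRFa, a neuropeptide made by thoracic neurons that require Ap, fell in both mutants. It stood at 78.4, 86.9, 79.4 and 79.8 CPM in L854F replicates 1 to 4, at 86.4, 97.4, 72.5 and 98.6 CPM in JmjC replicates 1 to 4, and at 114, 108, 120 and 124 CPM in WT replicates 1 to 4. All mutant samples lay below all WT samples. The log2 fold change was -0.52 in L854F (SE 0.06, edgeR adjusted p = 0.000272) and -0.39 in JmjC (SE 0.09, edgeR adjusted p = 0.0136), and the call in each held without any 1 library.

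Other factors that act on FMRFa in those neurons were in the lists. The zinc finger gene sqz stood at 21.5 CPM in L854F, 22.4 CPM in JmjC and 21.5 CPM in WT, and was not called. The bHLH gene dimm, at 5.12 CPM in L854F, 5.08 CPM in JmjC and 6.02 CPM in WT, was not called either (log2 fold changes -0.23 and -0.24, edgeR adjusted p = 0.465 and 0.253). wit, the BMP receptor needed for FMRFa expression, rose in both mutants, with 110 ± 6.52 CPM in L854F and 111 ± 3.73 CPM in JmjC, against 93.5 ± 2.44 CPM in WT (log2 fold changes 0.24 and 0.25, edgeR adjusted p = 0.025 and 0.00335). In L854F the call for wit was lost without any 1 library other than L854F replicate 2 or WT replicate 3 (edgeR adjusted p up to 0.0785), and in JmjC it held without any 1 library.

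Among genes of motor axons, Fas2, a cell adhesion molecule of motor axon bundles, stood at 697, 615, 660 and 727 CPM in L854F replicates 1 to 4, at 587, 586, 599 and 558 CPM in JmjC replicates 1 to 4, and at 689, 697, 702 and 651 CPM in WT replicates 1 to 4. JmjC lay below both other groups, as for zfh1. Fas2 fell in JmjC against WT (log2 fold change -0.23, SE 0.05, edgeR adjusted p = 0.00628) and was higher in L854F than in JmjC (0.22, SE 0.06, edgeR adjusted p = 0.0366, lost without any 1 library other than L854F replicate 2 or JmjC replicate 3, up to 0.101). robo3, an axon guidance receptor, fell in JmjC (365 ± 25.6 CPM, against 421 ± 16.2 CPM in WT, log2 fold change -0.20, edgeR adjusted p = 0.0333); it was the remaining called gene in JmjC against WT and is named after its value was seen. This robo3 call was lost without any 1 library other than JmjC replicates 1 and 2 or WT replicate 3 (edgeR adjusted p up to 0.0919). In L854F against JmjC robo3 had a log2 fold change of 0.20 (edgeR adjusted p = 0.0441) and beat-Ia, which loosens motor axon bundles, one of 0.20 (139 ± 5.73 CPM in L854F, against 121 ± 6.51 CPM in JmjC, edgeR adjusted p = 0.0306). Between the mutants, the call for robo3 held only without L854F replicate 3 or JmjC replicate 2 among the 8 leave-outs, and that for beat-Ia only without L854F replicate 2 or JmjC replicate 3 (edgeR adjusted p up to 0.122 and 0.0881). unc-5, a Netrin receptor that Eve, Zfh1 and Grn promote in dorsal motor neurons, was not called, at 175 CPM in L854F, 167 CPM in JmjC and 173 CPM in WT.

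ci, the transcription factor of Hedgehog signalling, rose in JmjC to 108 ± 13.4 CPM, against 81.7 ± 11.8 CPM in WT (log2 fold change 0.40, SE 0.11, edgeR adjusted p = 0.0292), and was lower in L854F (79.7 ± 7.90 CPM) than in JmjC (log2 fold change -0.43, edgeR adjusted p = 0.0101). The ci call against WT was lost without JmjC replicate 3 or 4 or WT replicate 1 or 4 (edgeR adjusted p up to 0.0846), and JmjC and WT samples overlapped. The transmitter gene VGlut, which motor neurons use, stood at 533 CPM in L854F, 509 CPM in JmjC and 554 CPM in WT, and Shal, a voltage-gated potassium channel, at 77.9, 82.2 and 81.8 CPM in the same order. Neither was called.

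**Figure D5:**
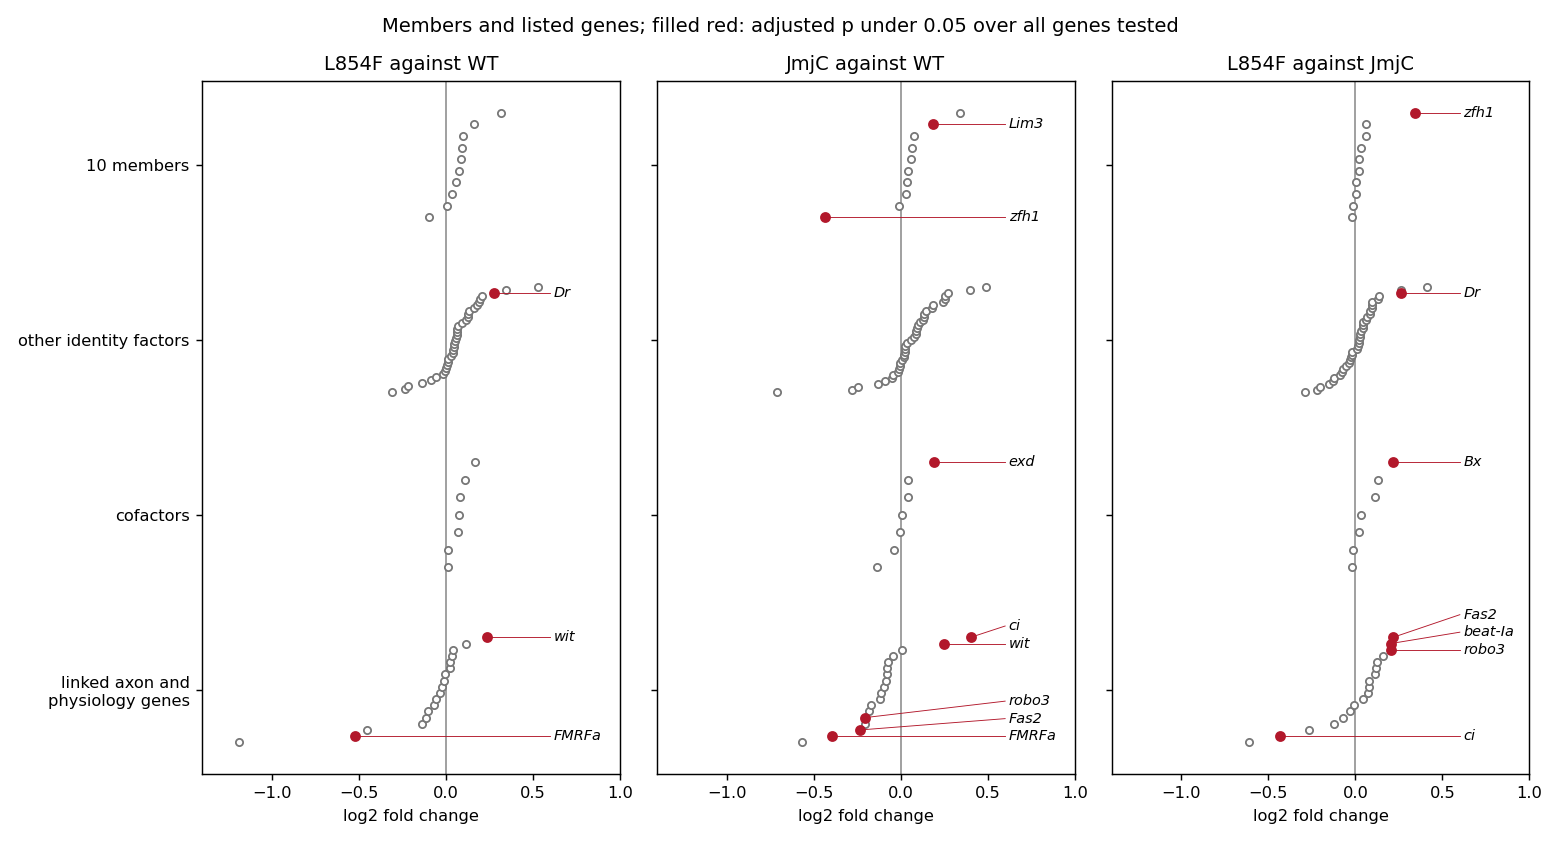
Log2 fold changes of all tested genes of the 10 members, the other identity factors, the cofactors and the linked axon and physiology genes, sorted within each list, for the 3 comparisons. Filled red points, named at the right, had an adjusted p under 0.05 over all genes tested. FMRFa is a called fall in both comparisons with WT (-0.52 for L854F, -0.39 for JmjC).

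The genes whose levels followed zfh1 and Lim3 most closely were listed by Pearson correlation of log2 CPM over the 12 samples, among 9345 genes. The samples share the differences between the groups, and the values are descriptions. For zfh1 they were CG34402 (r = 0.966), Rpt6R (0.956) and CG34408 (0.949). CG34402 averaged 14.96 CPM in L854F, 9.10 CPM in JmjC and 17.3 CPM in WT, with a log2 fold change of -0.93 in JmjC against WT (edgeR adjusted p = 0.000515). Rpt6R, a proteasome subunit paralog, had 2.95, 1.09 and 2.80 CPM in the same order, and CG34408 had 162, 139 and 162 CPM. All of them were lowest in JmjC. For Lim3 they were CG10151 (r = 0.929), CG14787 (0.928) and CG30274 (0.918), the last of which averaged 1.27 CPM in L854F and 1.11 CPM in JmjC, had no count in any WT sample and had too few counts to be tested against WT.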

How the data were processed

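Per the labels, RNA was extracted with Trizol and libraries were made with a stranded mRNA kit. The authors deposited expected counts by gene from RSEM, going by the file names, and all values are whole numbers. The submitters' processing notes list Bowtie2 2.2.5, RSEM 1.2.12, DESeq2 and build dm6, with no role or order. The authors' deposited comparison tables give log2 fold changes and adjusted p-values, a mean expression signal that was not used here, and a gene length in bases whose definition is not stated.

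A separate fit over all genes was made for each pair of groups (8 samples) with edgeR 4.0.16 (R 4.3.3): filterByExpr (minimum count 10, minimum total 15), TMM factors, the quasi-likelihood F-test and Benjamini-Hochberg adjustment, called under 0.05. WT counts are identical in both tables. Standard errors and 95% intervals come from these fits; CPM uses TMM factors over the 12 samples. The fitting was tested on simulated data. Alternatives were DESeq2 1.42.0, other scalings, filters, dispersion and thresholds, a replicate block, all samples in 1 fit and each library left out. All 10 members are named; of each list, up to 4 called genes per comparison, taken by adjusted p; and the 3 genes most correlated with each called member. The members and lists were chosen with earlier results of these data known. Samples of the same number in L854F and JmjC had correlated deviations (4 of 4 correlations over 0.1, from 0.103 to 0.172). No label says why, and pairs of unlike number in these groups ranged from -0.266 to 0.149. With WT, same-number pairs were over 0.1 in 2 of 4 for L854F and 0 of 4 for JmjC. There, pairs of unlike number reached 0.038 for L854F and 0.157 for JmjC. Positions are from the BDGP6.54 annotation, matched by FlyBase identifier. PCR reads are not independent molecules, so counting error is a lower limit.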

Additional observations from a re-analysis of the deposited data

Results flagged for a closer look

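Over 25 named genes in 3 groups each, 75 sets of 4 samples were examined for a sample far from the others, and 5 were found; chance alone gives about 1 in 20. Among the members, tup was low in WT replicate 3, at 25.3 CPM (the other WT samples were at 29.0 to 29.4 CPM). vvl was low in JmjC replicate 3, at 105 CPM (the others were at 116 to 118 CPM), and Lim1 was low in L854F replicate 4, at 76.0 CPM (the others were at 83.3 to 83.8 CPM). FMRFa was high in L854F replicate 2, at 86.9 CPM (the others were at 78.4 to 79.8 CPM), which still lay below all WT samples. CG34402 was low in JmjC replicate 4, at 7.07 CPM (the others were at 9.60 to 9.95 CPM), the sample in which zfh1 was lowest too.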

How the results depend on the processing

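The zfh1 calls in JmjC over WT and in L854F over JmjC held under the 16 alternatives run at the 0.05 threshold (log2 fold changes -0.47 to -0.37 and 0.27 to 0.38). The edgeR or DESeq2 adjusted p reached 0.00645 for the first and 0.0454 for the second, which is close to the threshold. zfh1 was called under none of these alternatives in L854F over WT. Lim3 in JmjC over WT was called under 6 of 16, with edgeR or DESeq2 adjusted p between 0.0173 and 0.132. Members called in JmjC over WT fell to 1 with DESeq2, with no filter, with the replicate block and at a threshold of 0.01, and ranged from 1 to 2 without any 1 library. At 0.01 the genes called in all were 212 for L854F over WT, 812 for JmjC over WT and 659 for L854F over JmjC. At 0.01 there were 0 members called in L854F over JmjC. At that threshold other identity factors numbered 0 in L854F over WT and 0 in L854F over JmjC, cofactors 0 in JmjC over WT and 0 in L854F over JmjC, and linked genes 1, 2 and 0 in the 3 comparisons. Cofactors in JmjC over WT were 0 with DESeq2 size factors and with no filter. Other identity factors in L854F over JmjC were 2 with DESeq2 and with the replicate block.

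Without any 1 library, all genes called ranged from 307 to 426 in L854F over WT and from 977 to 1725 in L854F over JmjC, where the highest count came without JmjC replicate 3. Linked genes called ranged from 1 to 2, from 3 to 5 and from 1 to 4 in the 3 comparisons, other identity factors from 0 to 1, 0 to 1 and 0 to 2, and cofactors in JmjC over WT were 0 in each case.

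The replicate block changed the sign of en in L854F over WT (-0.0083), eve (0.024) and ap (-0.0071) in L854F over JmjC, and moved no other count of calls by over 1.5 times. Scaling by library totals gave -0.0088 for en in L854F over WT, and in L854F over JmjC -0.0013 for exex, -0.019 for HGTX, -0.018 for ap and -0.00057 for en. A filter at 1 CPM gave -0.00075 for HGTX, and 1 fit of all 12 samples gave -0.0039 for HGTX and -0.0022 for ap, in L854F over JmjC. None of these was called in any setting, and the cause was not tested.

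Signs also changed without single libraries. In L854F over WT the ranges were -0.12 to 0.083 for en, -0.076 to 0.10 for ap and -0.0016 to 0.15 for exex. In JmjC over WT they were -0.0061 to 0.066 for ap, -0.0093 to 0.075 for tup, -0.078 to 0.077 for en, -0.019 to 0.070 for vvl and -0.00060 to 0.15 for exex. In L854F over JmjC they were -0.16 to 0.28 for eve, -0.035 to 0.13 for tup, -0.11 to 0.078 for ap, -0.069 to 0.086 for exex, -0.041 to 0.049 for HGTX, -0.097 to 0.10 for en, -0.049 to 0.017 for Lim3 and -0.0090 to 0.064 for Lim1. Counts were lowest for eve, at 40 to 104 per sample.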

Other observations

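The deposited gene length of zfh1 was 6510 bases in the table of L854F and WT and 5956 bases in the table of JmjC and WT, a difference of 554 bases. The annotation holds 2 zfh1 transcripts of 6522 exonic bases and a shorter one of 3560. Over 9053 genes tested in both comparisons with WT, 44.9% had the same length in both tables, and in 109 of them the length in the JmjC table was shorter by at least the ratio seen for zfh1. Lengths were identical for 92.4% of the genes with 1 annotated transcript and for 15.9% of those with more. For the other 9 members the length in the JmjC table was between 99.2% and 100.9% of that in the L854F table. How the length was defined is not stated, and no count per transcript was used here, so the use of zfh1 transcripts was not tested.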
